A study of Mus musculus with 18 samples.

Results

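Ribosome loading was compared between livers of mice fed a high-fat diet with lycopene (HFD+LYC) and livers of mice fed the high-fat diet alone (HFD). In each liver the abundance of a transcript bound to ribosome-nascent chain complexes (RNC) was divided by its abundance in the total poly(A) RNA (mRNA) of the same liver. The log2 ratios of the 3 HFD+LYC livers were then set against those of the 3 HFD livers. The comparison rests on 12 of the 18 libraries and 6 of the 9 livers of the study, and a pair of libraries was joined to a liver through the animal code that its deposited tables share. The remaining 6 libraries came from 3 livers of mice on normal chow (control), which carry neither the high-fat diet nor lycopene. All mice were male, wild type C57BL/6, put on their diet at 8 weeks of age, kept on it for 8 weeks and sampled at 16 weeks. Neither the dose of lycopene nor the fat content of the diet is in the labels.

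A ribosome-nascent chain complex is an mRNA with ribosomes and their growing protein chains. Cycloheximide in the lysis buffer holds the ribosomes in place, and the complexes are pelleted through sucrose, so the ratio is a relative enrichment of a transcript in the pellet, between 2 libraries scaled separately. It is no share of copies and does not count ribosomes per transcript, and RNA in other large particles can pellet as well. Hepatocytes make most plasma proteins and apolipoproteins on ribosomes at the endoplasmic reticulum. Messages for ribosomal proteins are known as a class whose loading changes together, through a run of pyrimidines at their first base that answers to the growth-signalling kinase complex mTORC1. Lycopene is the red carotenoid of tomato, and the enzyme Bco2 cleaves it.

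The 12 libraries held 4533729 to 12742436 counted reads. The 3 HFD+LYC RNC libraries stood apart from all others: they held reads of 8940, 9567 and 10037 genes, against 13324 to 14450 in HFD RNC, and only 112, 70 and 74 genes with exactly 1 read, against 614 to 842. Scaling factors by trimmed means (TMM) were 0.314, 0.875 and 0.610 for these 3 libraries and 0.800 to 0.950 for HFD RNC. Among mRNA libraries, replicate 2 of HFD+LYC held 189 genes with a single read, against 652 to 798 in the other mRNA libraries. Every library that stands apart in the RNC fraction is an HFD+LYC library, so this feature and the diet cannot be told apart, and each result below rests on these 3 libraries. The hepatocyte marker Alb was abundant in the RNC libraries of all 6 livers, with 279733 to 1066722 reads.

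The gap in detection reached well-expressed genes. Levels are given in CPM (counts per 1e6 reads), scaled by TMM except in this detection count, which used the plain library total. The share of genes with an RNC read was taken among genes with at least 10 CPM in the mRNA of the same liver. It was 99.96%, 99.99% and 100% in HFD replicates 1, 2 and 3. It was 87.4%, 88.6% and 95.1% in HFD+LYC replicates 1, 2 and 3, with exact 95% intervals of 86.7% to 88.1%, 87.9% to 89.2% and 94.6% to 95.5% that cover counting error only. The groups did not overlap. With all libraries thinned to 4533729 reads the shares in HFD+LYC were 86.8%, 88.5% and 94.7%, and the mean gap to HFD livers was -9.96 percentage points against -9.64 without thinning.

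**Figure D1:**
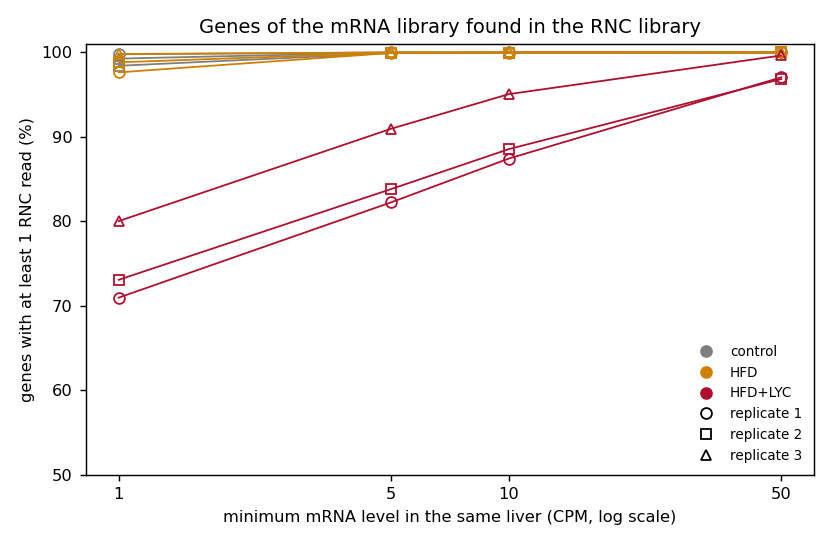
Share of genes with at least 1 RNC read (y axis, percent, from 50) among genes above a minimum mRNA level in the same liver (x axis, CPM without TMM on a log scale). Each line is 1 of the 9 livers. The 6 control and HFD livers lie at 97.6% or above throughout, and the 3 HFD+LYC livers start at 71.0% to 80.0% and stay below them at every minimum.

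The ratio varied more from gene to gene in HFD+LYC livers. Its standard deviation across 12872 genes was 0.930, 1.12 and 0.605 in HFD replicates 1, 2 and 3 and 2.10, 2.08 and 1.69 in HFD+LYC replicates 1, 2 and 3. The groups did not overlap (two-sided exact permutation test over livers, p = 0.1, the smallest that 3 against 3 allows). The control livers stood at 0.602, 1.39 and 0.903. The rank correlation of RNC and mRNA levels across genes, which are not independent replicates, was 0.917, 0.869 and 0.967 in HFD livers and 0.730, 0.698 and 0.807 in HFD+LYC livers.

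The ratio was higher in HFD+LYC than in HFD livers for 327 of 12872 genes (2.54% of those tested) and lower for 1300 (10.1%), by edgeR's quasi-likelihood test with the liver as a block and Benjamini-Hochberg adjusted p under 0.05. The median log2 change over all tested genes was -0.74. Of the genes called lower, 658 had no read in any of the 3 HFD+LYC RNC libraries. Among the 7260 genes with a read in all 12 libraries, 309 were higher (4.26%), 458 were lower (6.31%) and the median was -0.15. Of 215 genes whose mean level over all 18 libraries was 500 CPM or more, 20.5% were higher and 2.79% lower, with a median of 0.76. That mean includes the HFD+LYC RNC libraries, so a rise there helps a gene reach 500 CPM. These shares therefore cannot show a link with abundance. A gene that was not called is not shown to be unchanged. The per-liver ratios of the diets did not overlap for 1033 genes on the higher side (8.03%) and 3166 on the lower side (24.6%).

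The split of the calls moved with the scaling. Of the called genes 20.1% were higher with TMM, 5.36% with plain library size, 2.45% with the library total behind the deposited RPKM values and 33.2% with upper-quartile scaling. Plain library size moved the median of all genes by -0.71, to -1.45, and changes below are to be read against the median of -0.74. Single libraries also moved the counts: without HFD replicate 1, 40 genes were higher and 167 lower, without HFD replicate 2 these were 102 and 376, and without HFD replicate 3 they were 48 and 230. Without control replicate 1, 218 and 782 were called, and without control replicate 3, 134 and 528. With the 12 HFD and HFD+LYC libraries alone, 67 genes were higher and 168 lower.

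Beside this, HFD against control gave 0 calls in either direction by edgeR in the same fit (0% of 12872 genes), and DESeq2, limma-voom and limma on per-liver ratios gave 0 as well. Its test was conservative, with 10 genes at an unadjusted p under 0.05 where chance gives 643.6, against 3749 for HFD+LYC against HFD. HFD+LYC against control gave 271 higher (2.11%) and 1121 lower (8.71%), and these were 60 and 276, 100 and 300, and 41 and 213 without control replicate 1, 2 and 3. Without HFD replicate 1, 2 and 3, which enter that comparison through the shared spread, they were 127 and 563, 142 and 602, and 143 and 558, and without HFD+LYC replicate 2 they were 399 and 1796. These comparisons share the HFD or the HFD+LYC livers with the main one.

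The messages of the ribosome itself had low ratios in HFD+LYC livers. All 78 cytosolic ribosomal proteins, the building blocks of the large and small subunits, fell, at a median log2 change of -3.98 and a range of -6.27 to -2.65, where 10.1% of all genes fell. All 78 had per-liver ratios that did not overlap between the diets. The median ratio over the 78 was 1.08, 0.87 and 0.69 in HFD replicates 1, 2 and 3 and -3.25, -1.77 and -3.92 in HFD+LYC replicates 1, 2 and 3. Control livers stood at 0.39, 1.94 and 0.73, on the HFD side. The fall lay in the RNC libraries: the median difference in log2 CPM was -0.19 in mRNA and -4.10 in RNC. Together these genes took 1.43%, 1.67% and 1.70% of mRNA reads in HFD livers and 1.61%, 1.16% and 1.80% in HFD+LYC livers. Of RNC reads they took 1.75%, 1.82% and 1.89% in HFD livers and 0.0381%, 0.172% and 0.0676% in HFD+LYC livers. Without HFD replicate 1, 40 of the 78 were called lower. The same fall was seen in genes that have "ribosomal" in their names without being subunits, described further on. No label or header records a removal of reads by gene name before deposit; whether one took place in these 3 libraries was not tested, and it cannot be told apart from lower loading in any ribosomal value given here.

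Rps18, a protein of the small subunit's head, shows the pattern in single livers. Its log2 ratio was 0.99, 0.46 and 1.05 in HFD replicates 1, 2 and 3 and -5.12, -3.38 and -5.23 in HFD+LYC replicates 1, 2 and 3. The RNC libraries held 1535, 2833 and 3884 of its reads in HFD livers and 45, 77 and 68 in HFD+LYC livers. Every HFD+LYC liver lay below every HFD and control liver, and the ratio fell 44.0-fold (log2 change -5.46, SE 0.63, adjusted p = 0.00177).

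Rpl10, a large subunit protein near the sites where tRNAs sit, had log2 ratios of 1.28, 1.29 and 0.85 in HFD livers and -4.17, -3.10 and -5.08 in HFD+LYC livers. It fell 39.7-fold (log2 change -5.31, SE 0.62, adjusted p = 0.00177). Rpl21, with 71, 42 and 77 RNC reads left in HFD+LYC against 1917, 3954 and 4591 in HFD livers, fell by 4.91 on the log2 scale with the smallest p of the list (SE 0.42, adjusted p = 0.000755). Rps18, Rpl10, Rpl14 (-5.52) and Rpl39 were among the 10 largest falls of all called genes with reads in the 12 libraries, as were the paralogs Rps27l (-5.61), Rpl36al (-5.57) and Rpl7l1 (-4.98). Of 9 such paralogs tested, a list added after values were seen, 7 fell. In Rpl14 replicate 2 stood apart within HFD+LYC, at -2.30 against -5.78 and -6.07.

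The stalk protein Rplp0, often used as a reference transcript, had log2 ratios of 0.52, 1.06 and -0.04 in HFD livers and -4.18, -1.91 and -3.73 in HFD+LYC livers (log2 change -3.84, SE 0.67, adjusted p = 0.00823). Rps6, the subunit that S6 kinases phosphorylate, stood at 1.08, 1.19 and 0.59 against -3.93, -1.55 and -4.33 (log2 change -4.29, SE 0.77, adjusted p = 0.00913). In both, HFD+LYC replicate 2 was the highest of its group and still below each HFD liver. Many ribosomal protein genes have processed pseudogenes of near-identical sequence, and how the authors assigned shared reads is recorded in none of the labels, so single values of these genes are uncertain.

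The mitochondrial ribosome, which translates the few proteins encoded in mitochondrial DNA, is built from a separate set of nuclear genes, and its messages were low as well. Of 78 mitochondrial ribosomal proteins 73 fell and none rose, with a median log2 change of -4.72. The 5 not called, named after their values were seen, were Mrpl3, Mrpl11, Mrpl13, Mrpl19 and Mrps18b. Per-liver medians were 0.89, 1.00 and 0.64 in HFD livers and -3.91, -2.69 and -3.85 in HFD+LYC livers. The groups did not overlap for 77 members, and 10 members had no read in any HFD+LYC RNC library. The median difference was -0.26 in mRNA and -4.42 in RNC. Without HFD replicate 1, 36 of the 78 were called lower, without HFD replicate 3, 48, and with the 12 libraries alone, 37.

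Mrps2, a small-subunit member, had log2 ratios of 0.35, 0.85 and 0.18 in HFD livers and -3.86, -3.60 and -4.06 in HFD+LYC livers. It had 144, 513 and 391 RNC reads in HFD livers and 1, 1 and 3 in HFD+LYC livers, while its mRNA stood at 25.4, 25.2 and 33.4 CPM against 10.8, 8.64 and 17.0 CPM. Its ratio fell 44.7-fold (log2 change -5.48, SE 0.52, adjusted p = 0.000858). Mrpl18 of the large subunit fell furthest among genes with reads in all 12 libraries (log2 change -6.06, SE 0.77, adjusted p = 0.00248), from -1.56, -1.80 and -0.27 in HFD to -5.53, -8.21 and -7.01. Mrps33 had 389, 967 and 1024 RNC reads in HFD livers and 0 in each HFD+LYC liver, which makes its ratio at least 257-fold lower (against a floor of 3 reads over the group, adjusted p = 0.000858). Mrpl4 kept a single RNC read over the 3 HFD+LYC livers.

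Because a run of pyrimidines at the first transcribed base is what joins cytosolic ribosomal protein messages into 1 class, the start sites were read from RefSeq promoter windows (GRCm38.p6). The search asked for a C at the annotated first base followed by at least 4 bases that are each C or T, on the transcript's own strand. Each printed window has 25 bases, 5′ to 3′, with 12 before and 12 after the annotated first base, and capitals mark the pyrimidine run that begins with a C. The first 3 are cytosolic ribosomal proteins with the run at the start whose ratio fell. The next 2 are translation initiation factors with the run at the start that were not called, and the last 2 fell without the run: a mitochondrial ribosomal protein and an S6 kinase.
Rps18: gtcacttccgctCTCTCTTCCacag
Rpl15: ggagaaagccttCTTCCTTTCCTCT
Rpl35: ccccgccctttcCTCTTTCTCTCga
Eif3f: gttctaggctctCTCTCTTTCTCgg
Eif2s3x: ccgagcattttcCTTTTCTCTCCga
Mrps2: gccgggcaggaagagtctctgcagg
Rps6kb1: atgcgccggagctgaacttgaggag
They lie at chr17:33955653-33955677 (minus strand), chr14:18270974-18270998 (minus), chr2:39005119-39005143 (minus), chr7:108934403-108934427 (plus), chrX:94212639-94212663 (minus), chr2:28468054-28468078 (plus) and chr11:86544795-86544819 (minus), in the order of the lines.

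The run stood at the start in 13 of the 57 cytosolic ribosomal proteins that had a window (22.8%), in 0 of 69 mitochondrial ones and in 2.49% of all 27025 windows. Annotated starts can be off by a few bases, and within 5 bases the shares were 47.4%, 21.7% and 18.5%. All 13 cytosolic members with the run at the start fell, at a median of -4.20, and all 44 without it fell, at a median of -3.99. Every member of the list fell, so these counts could not differ by the run. With starts that can be off, some of the 44 may carry the run, and its part in the change was not tested. Rpl15 (-4.62) and Rpl35 (-4.20) were among the 13. Eif3f, a subunit of initiation factor eIF3, had log2 ratios of 0.51, 0.88 and 0.16 in HFD livers and 1.63, 2.46 and 1.25 in HFD+LYC livers (log2 change 1.28, SE 0.56, adjusted p = 0.158). Eif2s3x, a subunit of the factor that brings the initiator tRNA, stood at -0.40 (SE 0.57, adjusted p = 0.684). A match is a description of letters in a window and not a measured site.

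Factors that work on the ribosome without being part of it were mostly not called. Of 51 initiation and elongation factors 3 fell, 1 rose and the remaining 47 passed in neither direction; the list's median was -0.23, against 0.07 with upper-quartile and 0.03 with median-centred scaling. Plain library size gave 8 lower and 0 higher (median -0.91) and the RPKM library total 15 lower and 0 higher (median -1.22). The 3 that fell were Eif2a (-2.14), Eif3l (-2.38) and the RNA helicase Eif4a1 (-2.08), and Eif5b, which joins the subunits, rose by 1.77. Eef1a1, which carries tRNAs to the ribosome and whose message belongs to the same pyrimidine class, had log2 ratios of 0.95, 1.35 and 0.35 in HFD livers and 0.31, 1.23 and -0.46 in HFD+LYC livers. These overlap (log2 change -0.52, SE 0.61, adjusted p = 0.604). Eef2 (1.03, adjusted p = 0.173) and the poly(A)-binding protein Pabpc1 (-0.04, adjusted p = 0.966) were not called. Of 22 aminoacyl-tRNA synthetases, which charge tRNAs, 2 fell (Dars, -2.83, and Farsa, -2.92), with a median of -0.86. Oxidative phosphorylation genes have the same median transcript length as the cytosolic ribosomal proteins (714 bases), and of 75 none fell, 2 rose (Atp5d, 1.83, and Ndufb7, 1.62) and 73 were not called. Their counts turned with the scaling: plain library size gave 5 lower and 0 higher (median -0.58) and the RPKM library total 10 lower and 0 higher (median -0.87), from a median of 0.14. Under these scalings 77 of the 78 mitochondrial ribosomal proteins were lower. The part of transcript length in any of these falls was not tested.

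**Figure D2:**
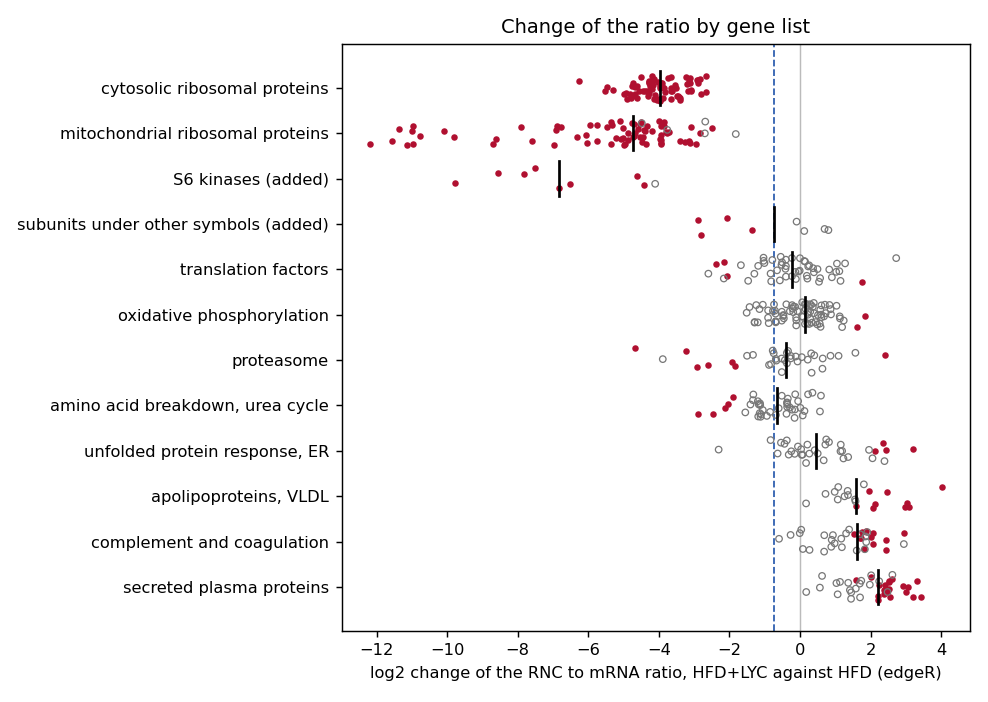
Log2 change of the RNC to mRNA ratio (x axis, HFD+LYC against HFD) for the tested genes of 12 lists, 1 point per gene; filled red points passed the test, open points did not, black bars are list medians and the dashed line is the median of all tested genes (-0.74). The cytosolic ribosomal proteins lie between -6.27 and -2.65, apart from translation factors and oxidative phosphorylation genes, and secreted plasma proteins all lie above 0.

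Several further gene groups, chosen after values were seen, bear on which ribosome-related genes were low. They were put together from textbook names, since the deposited tables give symbols only. S6 kinases are signalling enzymes that are not part of the ribosome but carry "ribosomal protein" in their names: 8 of the 9 tested fell (median -6.82, or -4.45 with members without HFD+LYC RNC reads at their bound). Rps6kb1, the kinase that phosphorylates Rps6 under mTORC1, had log2 ratios of -1.14, -0.78 and -0.26 in HFD livers and -5.62, -3.82 and -4.87 in HFD+LYC livers (log2 change -4.43, SE 0.63, adjusted p = 0.00374). Rps6ka1, an S6 kinase of the ERK pathway, had 77, 196 and 104 RNC reads in HFD livers and 1, 0 and 0 in HFD+LYC livers (adjusted p = 0.00253). Without HFD replicate 1 or HFD replicate 3, 4 of the 9 were called, and with the 12 libraries alone, 2.

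A wider list of genes with ribosomal names that are no subunits, S6 kinases included, gave 20 of 24 lower and none higher (median -5.86, or -4.53 at the bound). Without HFD replicate 1 this was 9, without HFD replicate 3 it was 11 and with the 12 libraries alone 6. Rsl1d1 (-5.71) and Rsl24d1 (-5.57) take part in subunit assembly, and Rps19bp1 (-4.67) binds Rps19. Of 50 genes of ribosome assembly in general 11 fell (22%, beside 10.1% of all genes) and 39 passed in neither direction. None rose, where 2.54% of all genes did. The median of this list was -0.91, beside -0.74 over all genes. Its lowest change, -10.16, is also the lowest of the wider list, so members may be shared. The assembly list is therefore not read as a contrast to the wider one. Pes1, which acts in large-subunit assembly, was 1 of the 11, at -0.82, 0.49 and 0.12 in HFD livers and -4.65, -3.78 and -4.72 in HFD+LYC livers (log2 change -5.14, SE 0.72, adjusted p = 0.00315).

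Of 8 true subunits whose symbols do not begin with the usual ribosomal letters, 4 fell and 4 were not called. Rack1, a protein of the small subunit, had log2 ratios of 1.10, 0.55 and 0.30 in HFD livers and 1.10, 0.93 and 0.28 in HFD+LYC livers, which overlap (log2 change 0.12, SE 0.45, adjusted p = 0.888, and -0.59 with plain library size). The mitochondrial subunits Gadd45gip1 (0.70), Chchd1 (0.81) and Aurkaip1 (-0.10) were not called, while Dap3 (-1.36) and Ptcd3 (-2.08) fell. Fau (-2.88), which encodes a ribosomal protein fused to a ubiquitin-like protein, fell as well. All 8 changes lay above the median of both ribosomal protein lists. On the wider list of ribosomal names 20 of 24 fell, a count that includes the S6 kinases (8 of 9). Both lists were put together after values were seen. Outside the cytosolic and mitochondrial ribosomal protein lists 1149 genes fell (9.04%), and falls were not confined to such names. Among these 8 subunits under other symbols 4 fell (50%, beside 10.1% of all genes), and their median was -0.73, beside -0.74. Of 6 genes with "ribosome" in the full name that are no subunits, also added after values were seen, 1 fell (median -0.52). The part of any name-based removal of reads in the HFD+LYC RNC libraries was not tested.

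At the other end, messages of proteins that hepatocytes secrete had higher ratios. Of 39 secreted plasma proteins 20 rose and none fell (2.54% of all genes rose), with a median log2 change of 2.22, and the ratios did not overlap for 32. Most are abundant: 34 reached this mean level of 500 CPM, and 18 of these rose (52.9%). Of the 155 genes that also reached it outside the ribosomal, plasma, complement and apolipoprotein lists, 15 rose (9.68%) and the median was 0.23. Levels above 500 CPM were not matched, and the mean includes the HFD+LYC RNC libraries, so this does not set abundance aside. The median ratio was 0.99, 1.14 and 0.30 in HFD replicates 1, 2 and 3 and 3.89, 2.79 and 2.00 in HFD+LYC replicates 1, 2 and 3. The median difference was -0.60 in mRNA and 1.60 in RNC. Of RNC reads the list took 13.07%, 19.28% and 17.55% in HFD livers and 31.96%, 20.39% and 28.51% in HFD+LYC livers. By this share HFD+LYC replicate 2 lay close to HFD replicate 2. Of mRNA reads it took 9.461%, 11.43% and 16.5% in HFD livers and 7.799%, 5.07% and 11.81% in HFD+LYC livers. Vitronectin (Vtn), an adhesion protein of plasma, stood at 0.99, 0.64 and 0.10 in HFD livers and 4.71, 3.87 and 2.79 in HFD+LYC livers (log2 change 3.22, SE 0.57, adjusted p = 0.00895). Fetuin-A (Ahsg) rose by 3.44 (SE 0.64, adjusted p = 0.0104), from 0.37, 0.99 and -0.19 to 5.06, 3.40 and 3.09, and Serpina6, the corticosteroid-binding globulin, rose by 2.53. In each of these the lowest HFD+LYC liver lay above the highest HFD liver. Albumin, the main plasma protein, stood at 1.71, 1.81 and 0.91 against 4.03, 3.44 and 2.04. These do not overlap, but Alb was not called (log2 change 1.70, SE 0.73, adjusted p = 0.149).

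Of 35 complement and coagulation genes 12 rose and none fell, and the median over the list was 1.61. C8b, a part of the membrane attack complex, rose by 2.95 (SE 0.68, adjusted p = 0.0217) and C3, the central complement protein, by 2.01 (SE 0.49, adjusted p = 0.0241). Of 20 genes of apolipoproteins and VLDL assembly 9 rose and none fell, with a median of 1.58. Apoe, the ligand that clears remnant particles, had log2 ratios of 0.49, 0.17 and -0.50 in HFD livers and 5.04, 4.45 and 2.69 in HFD+LYC livers and rose 16.2-fold (log2 change 4.02, SE 0.71, adjusted p = 0.00865). Apoa1, the main protein of HDL, went from 0.91, 0.52 and 0.03 to 4.39, 3.28 and 2.75 (log2 change 2.98, SE 0.59, adjusted p = 0.0127). Apob, the VLDL scaffold, was not called, at 0.32, 1.05 and 0.19 against 0.88, 0.68 and 0.52 (log2 change 0.17, SE 0.42, adjusted p = 0.824). HFD+LYC replicate 1 was the highest of its group for all the genes of this kind given by liver. Major urinary proteins, pheromone carriers also secreted by hepatocytes, gave 0 of 18 in either direction, with a median of 0.97 that was -0.07 on the RPKM library total.

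These counts depended on single livers more than those of the ribosomal proteins. Without HFD replicate 1, 2 or 3 the plasma list had 3, 4 and 0 genes higher, the complement list 0 each time and the apolipoprotein list 1, 2 and 0. Without control replicate 3 these lists had 8, 1 and 4 and without HFD+LYC replicate 1 they had 13, 5 and 8, while without HFD+LYC replicate 3 they had 29, 17 and 14. With the 12 libraries alone they had 3, 0 and 1, and plain library size left 18, 3 and 7 and the RPKM library total 11, 2 and 5. The list medians stayed above 0 under each of these settings.

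**Figure D3:**
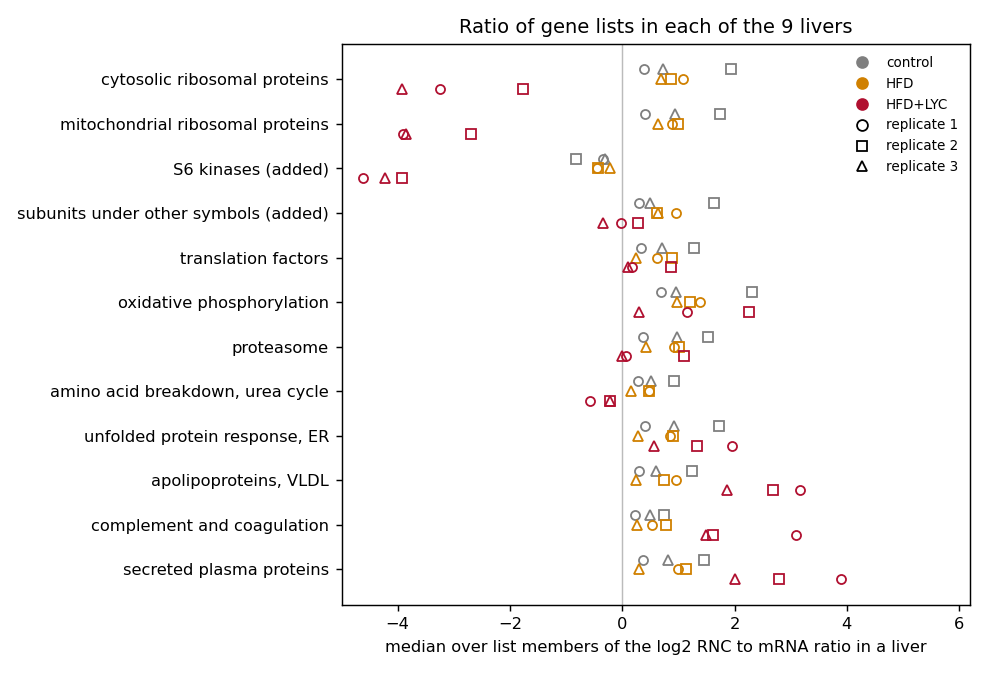
Median log2 RNC to mRNA ratio over list members (x axis) in each of the 9 livers, with diets by colour and replicates by symbol; lists marked as added were put together after values were seen. Cytosolic ribosomal proteins stand at -3.92 to -1.77 in HFD+LYC against 0.69 to 1.08 in HFD livers, and secreted plasma proteins at 2.00 to 3.89 against 0.30 to 1.14.

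Genes for folding in the endoplasmic reticulum gave a mixed picture. Of 34 unfolded protein response and chaperone genes 4 rose and none fell, with a median of 0.46 that was -0.25 with plain library size and -0.55 with the RPKM library total. The calcium-binding chaperone Calr rose by 3.21 (SE 0.55, adjusted p = 0.00791), from 0.76, 0.37 and -0.15 in HFD to 4.53, 3.10 and 3.01. Hyou1 rose by 2.43 and the translocon protein Sec62 by 2.11, whereas Hspa5, the most abundant of these chaperones, was at 0.84, 0.76 and 0.52 against 2.03, -0.12 and 0.11 (log2 change -0.06, adjusted p = 0.965). Carboxylesterases, drug- and lipid-cleaving enzymes held in the same compartment, were added after values were seen: 6 of 15 rose and none fell (median 1.90), among them Ces2e (3.97, SE 0.74, adjusted p = 0.0104).

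**Figure D4:**
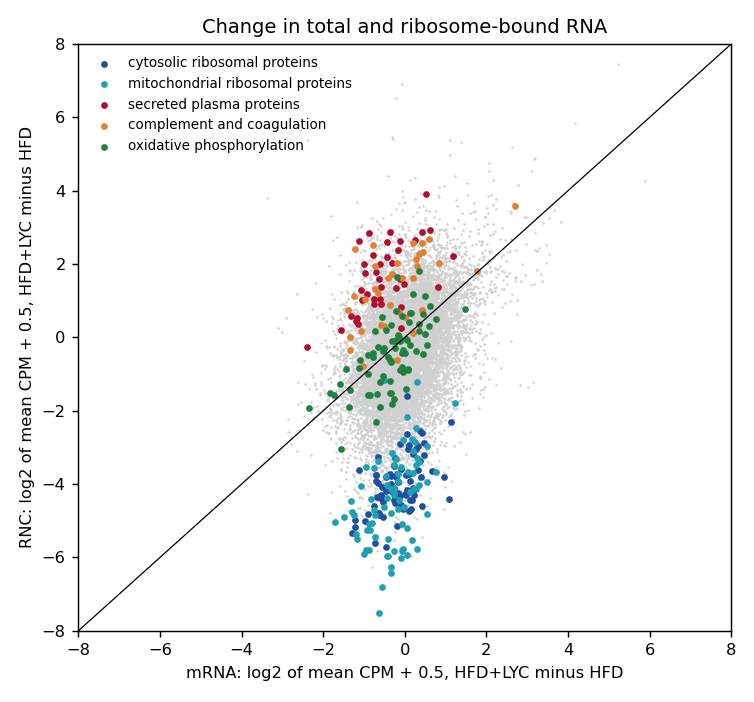
Difference of HFD+LYC and HFD livers in mRNA (x axis) and in RNC (y axis), as log2 of mean CPM plus 0.5, with 1 point per tested gene; the line marks equal change. Ribosomal proteins have a median of -0.19 (cytosolic) and -0.26 (mitochondrial) along x and -4.10 and -4.42 along y, while secreted plasma proteins have -0.60 along x and 1.60 along y.

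Enzymes of lipid and intermediary metabolism, the tissue's response to a high-fat diet, were mostly not called. Of 27 fatty acid and triglyceride synthesis genes 3 rose: the phosphatidate phosphatase Lpin1 (1.70), the desaturase Fads2 (1.90) and the acyltransferase Gpam (1.55). None fell, and the list's median of 0.02 was -0.70 with plain library size. Fasn stood at -0.07, 0.33 and -0.39 in HFD livers and 0.27, 1.28 and 1.30 in HFD+LYC livers, which overlap (log2 change 1.00, SE 0.44, adjusted p = 0.158). Scd1 (-0.25), Acly (0.79) and Srebf1 (-0.73) were not called. Of 25 cholesterol genes 1 fell, lanosterol synthase Lss (-1.91), and the synthase Hmgcs1 (-0.35) was not called. Of 40 fatty acid oxidation genes 4 fell and none rose, a share of 10% beside 10.1% of all genes. They included medium-chain acyl-CoA dehydrogenase Acadm (-2.31, SE 0.44, adjusted p = 0.0105), its electron acceptor Etfa (-3.10, SE 0.58, adjusted p = 0.0105) and Hsd17b4 (-1.82). The list median of -0.58 lay near that of all genes, and Cpt1a (-0.79) and Ppara (-0.89) were not called. Mgll, which cleaves monoglycerides, was the 1 member of 24 lipid droplet and uptake genes that rose (2.49, SE 0.38, adjusted p = 0.00453).

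Of 42 urea cycle and amino acid catabolism genes 5 fell and none rose (11.9% beside 10.1% of all genes, median -0.64), among them Bckdhb of the branched-chain keto acid dehydrogenase (-2.89) and cystathionine gamma-lyase Cth (-2.47). Cps1 (0.57) and Asl (-0.37) were not called. Of 22 bile acid genes 5 fell (median -0.79), among them Scp2 (-1.95), Akr1d1 (-1.84) and Amacr (-1.47), while Cyp7a1, the rate-limiting enzyme, was not called (0.73, adjusted p = 0.227). Of 31 xenobiotic cytochrome P450 genes 1 fell, Cyp2c54 (-1.85), with a median of 0.18 that was -0.54 with plain library size. Of 38 glutathione and NRF2 genes 6 fell and 1 rose (median -0.60). Gclc (-2.02) and Gclm (-2.21), the subunits that start glutathione synthesis, fell together, and Ephx1 rose by 2.09. Of 36 proteasome genes 6 fell and 1, the scaffold Psmd1 (2.42), rose. Bco2 was not called, at 0.04, 0.13 and -0.16 in HFD livers and -1.20, 0.22 and -0.21 in HFD+LYC livers (log2 change -0.40, SE 0.47, adjusted p = 0.614).

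Several regulators were among the 10 largest rises of all called genes with reads in the 12 libraries. Hipk2, a nuclear kinase, had 2, 16 and 6 RNC reads in HFD livers and 94, 232 and 481 in HFD+LYC livers. Its log2 ratio went from -2.04, -0.66 and -1.18 to 3.35, 5.34 and 4.68 (log2 change 6.45, SE 1.02, adjusted p = 0.00555). The forkhead factors Foxn3 (4.65) and Foxo3 (4.62), the poly-ADP-ribosylating enzyme Tnks (4.74), the growth factor Vegfd (4.61), the protein kinase A subunit Prkar2a (4.59), the chromatin protein Ubn2 (4.49) and the motor protein Kif13b (4.34) were also in this set. Foxn3, Foxo3, Tnks, Vegfd and Kif13b had 19 or fewer RNC reads in each HFD liver. Vegfd lost its call in 13 of 21 alternatives and Foxn3 in 10 of 21.

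A list of 32 hepatocyte transcription factors, added after these values were seen, had 12 genes higher and 1 lower (median 0.56). These shares were 37.5% and 3.12%, beside 2.54% and 10.1% of all genes. The largest rise on the list is that of Foxn3 named above, so its count is no separate support for these rises. With plain library size 4 were higher and 2 lower (median -0.14), and with the RPKM library total 4 were higher and 7 lower (median -0.45). Nfib, a nuclear factor I protein, had log2 ratios of -0.08, -0.01 and -0.56 in HFD livers and 3.79, 3.84 and 4.25 in HFD+LYC livers. It rose 18.3-fold (log2 change 4.19, SE 0.38, adjusted p = 0.000762), from 183, 486 and 408 RNC reads to 2284, 4128 and 4294. Foxp1 went from -0.17, -0.34 and -0.04 to 2.94, 3.01 and 3.13 (log2 change 3.25, SE 0.37, adjusted p = 0.0016). In both the HFD+LYC livers lay within 0.5 of each other. Foxa2, a pioneer factor of liver genes, was the 1 that fell, with 200, 258 and 301 RNC reads in HFD livers and 16, 1 and 0 in HFD+LYC livers (log2 change -4.91, SE 0.94, adjusted p = 0.0112).

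**Figure D5:**
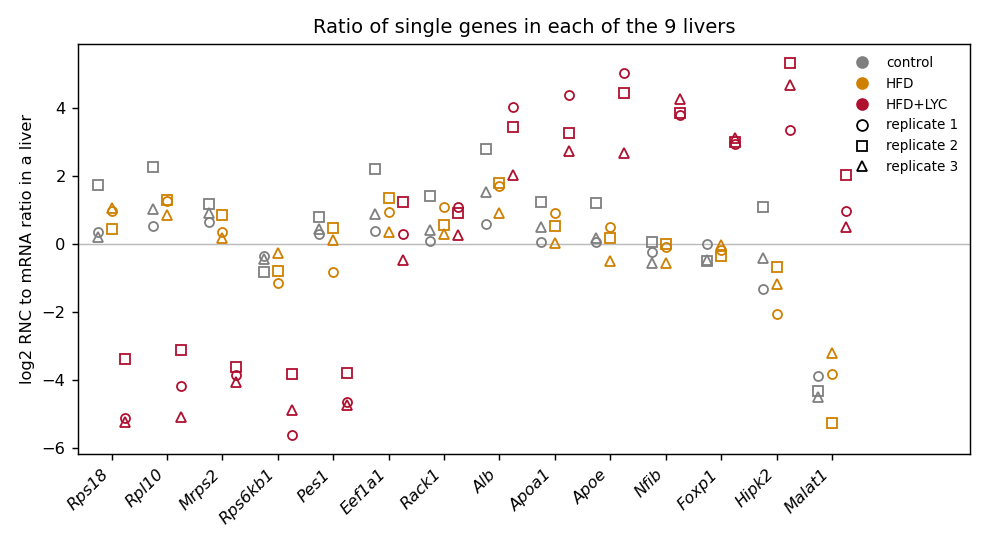
Log2 RNC to mRNA ratio (y axis) of 14 genes in each of the 9 livers, with diets by colour and replicates by symbol. Rps18 stands at -5.23 to -3.38 in HFD+LYC against 0.46 to 1.05 in HFD livers, Rack1 overlaps, and Nfib stands at 3.79 to 4.25 against -0.56 to -0.01.

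Single non-coding RNAs, which carry no long reading frame, moved in both directions. Over the 393 tested genes that RefSeq annotates as long non-coding RNA (lncRNA), 2 were higher (0.509%) and 42 lower (10.7%). Over all genes these shares were 2.54% and 10.1%. Malat1, a nuclear long non-coding RNA, had log2 ratios of -3.80, -5.26 and -3.20 in HFD livers and 0.98, 2.03 and 0.51 in HFD+LYC livers. It rose 38.4-fold (log2 change 5.26, SE 0.62, adjusted p = 0.0019), with 466, 275 and 407 RNC reads in HFD livers and 2141, 2314 and 2718 in HFD+LYC livers. Neat1, another nuclear RNA of the same chromosome region, did not follow, at -2.63, -4.37 and -1.43 against -4.62, -3.90 and -3.51 (log2 change -1.22, SE 0.77, adjusted p = 0.323). Rpph1, the RNA of ribonuclease P, had the largest rise under the same rule (log2 change 8.11, SE 1.64, adjusted p = 0.0134), with 155, 26 and 28 RNC reads in HFD livers and 2152, 1560 and 3925 in HFD+LYC livers. Its HFD livers were far apart, at 1.90, -2.70 and 1.78. Rmrp, the RNA of the related enzyme RNase MRP, had 9, 0 and 1 RNC reads in HFD livers and 177, 129 and 545 in HFD+LYC livers, with 0, 2 and 0 mRNA reads in the latter. The mRNA libraries hold poly(A) RNA, and how fully Malat1, Neat1, Rpph1 and Rmrp enter them was not tested. Ratios of these RNAs are therefore not read as loading on ribosomes.

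Other non-coding RNAs left the RNC libraries. Mir22hg, the host of a microRNA, had 108, 170 and 243 RNC reads in HFD livers and 0 in each HFD+LYC liver, at least 117-fold lower in ratio (adjusted p = 0.00227), while its mRNA stood at 85.2, 95.3 and 58.5 CPM in HFD+LYC livers. Gm44502 (at least 24.0-fold) and Gm17644 (at least 17.4-fold) were further unread lncRNAs, and the coding genes Rmi1 (at least 81.6-fold) and Ankrd10 (at least 55.3-fold) completed the 5 unread genes with the most mRNA. A separate list of 27 long non-coding RNAs had 3 higher and 2 lower, and its members need not carry the RefSeq annotation. Of 19 small nucleolar RNA hosts 3 fell (15.8%, beside 10.1% of all genes) and none rose, with a median of -1.47. Of 47 splicing factors 11 fell (23.4%, beside 10.1%) and 1 rose (2.13%, beside 2.54% of all genes), with a median of -1.18. Among those that fell was Hnrnph2, with 181, 525 and 650 RNC reads in HFD against 0, 2 and 0 in HFD+LYC livers (adjusted p = 0.00121).

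Markers of other liver cells were mostly not called, and 10.1% of all genes fell. Of 25 Kupffer cell and macrophage markers 1 fell (median -0.88), of 22 sinusoidal endothelial markers 2 fell (9.09%), Stab2 (-2.42) and Eng (-2.61) (median -1.16), and of 22 stellate cell markers 3 fell, among them Dcn (-2.10) (median -0.87). Over these lists the summed RNC level was 771 to 1392, 431 to 638 and 431 to 484 CPM in HFD livers, against 369 to 538, 277 to 362 and 158 to 202 CPM in HFD+LYC livers. In mRNA the macrophage sum was also lower in HFD+LYC livers (277 to 388 against 406 to 812 CPM), the endothelial sum was higher (679 to 835 against 493 to 600) and the stellate sums overlapped. Lymphocyte and neutrophil markers had 0 of 10 called in either direction, with a median of -3.98, or -1.12 with unread members at their bound. Of these 10, 8 lay below 0 and 5 had no read in any HFD+LYC RNC library. Of 6 erythroid markers 2 fell, the beta-globins Hbb-bs (-2.51) and Hbb-bt (-1.91). In whole liver, fewer cells of a type and less RNA per cell cannot be told apart. Of 27 muscle sarcomere genes 9 could be tested and 2 were higher (22.2%, beside 2.54% of all genes), Ttn and Myh7. The summed level of the 9 tested was 46.2 to 65.1 CPM in HFD RNC and 127 to 185 CPM in HFD+LYC RNC. Over the mRNA libraries of both diets it was 54.7 to 92.9 CPM. A gene can pass the count filter through the HFD+LYC RNC libraries alone, which raises this sum there. The share called and the calls of Ttn and Myh7 carry the same limit. Ttn had 0, 1 and 4 RNC reads in HFD livers and 246, 294 and 210 in HFD+LYC livers, and Myh7 had 0, 0 and 0 against 141, 39 and 69. Their mRNA libraries held at most 8 Ttn reads and 3 Myh7 reads in any of the 6 livers, and the part of muscle RNA in the other results was not tested.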

How the data were processed

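RNC and mRNA libraries of 9 livers were used. Reads were mapped to RefSeq RNA sequences per the labels, and the build mm10 and bcl2fastq are given without version in the submitters' processing notes. No label or header names the aligner or says whether counting used strand. Deposited read counts per gene, with splice variants merged per the file headers, are whole numbers and were used for all tests. The RPKM values deposited by the authors divide the read count by the longest transcript and by a total for the library, and only this total was used.

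Counts were fitted with edgeR 4.0.16 in R 4.3.3 (minimum count 10, minimum total 15, TMM, robust quasi-likelihood) over all 18 libraries, with liver, library kind and kind by diet as terms. This left 6 residual degrees of freedom and a biological coefficient of variation of 0.430 over 12872 of 24539 genes. The control livers enter the estimate of spread. Per-liver ratios are differences of log2(CPM + 0.5). DESeq2 1.42.0 and limma 3.58.1 were alternatives. The fold of a gene without HFD+LYC RNC reads is a bound at 3 reads over the group. Of the tested symbols 12842 matched RefSeq.

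The 2 libraries of a liver were paired through their shared animal code. Their deviations from group means over 7220 genes correlated at -0.078 to 0.747, with 4 of 9 livers over 0.1. Replicates differed 29.8 to 290 times as much as counting error (chi-square per degree of freedom). Each replicate is described as a biological one in the series text. The test was tried on simulated data, where it made few calls, so genes not called may have changed.

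The members and gene lists were chosen with earlier results of these data known, and lists said to be added were chosen after values were seen here. Genes were named by rule: with no overlap between the diets, reads in all 12 libraries and a mean over the 18 libraries of 1 CPM or more, the 10 called genes that rose most and the 10 that fell most; the 5 called genes without HFD+LYC RNC reads that had the most mRNA; up to 3 members of a described list with the smallest p; and 35 chosen genes. Others are named as examples or because they belong to a small count. Only part of those so named is printed, and some members of the lists are not reported here.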

Additional observations from a re-analysis of the deposited data

Results flagged for a closer look

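Each deposited RPKM value implies a read total for its library, and part of that total is in none of the listed genes. In the HFD+LYC RNC libraries this unlisted part was 8.22%, 29.9% and 14.2% of the total in replicates 1, 2 and 3. It was above the highest control RNC library, at 6.31%, in each of them. Among HFD RNC libraries replicate 1 stood at 13.8% and the others at 1.22% and 0.841%, so the diets overlapped. What these reads are is not recorded in the tables used here.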

How the results depend on the processing

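Only 3 livers per diet entered, and depth limits genes near 3 reads, which stood for 0.235 to 0.662 CPM without TMM. A ratio with no RNC read is a bound, and a median over a list that holds such genes moves with the filter. The cause of the shifts below was not tested.

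With plain library size 120 genes were called higher and 2118 lower for HFD+LYC against HFD, and 87 and 1807 for HFD+LYC against control. The RPKM library total gave 86 and 3420, and 67 and 3391. These 2 scalings moved list medians, in this order, to -5.50 and -5.75 for mitochondrial ribosomal proteins, 0.91 and 0.61 for complement, 0.86 and 0.56 for apolipoproteins, and reversed the chaperone list to -0.25 and -0.55. The RPKM total gave -4.99 for cytosolic ribosomal proteins and 1.19 for plasma proteins. Upper-quartile scaling called 499 higher, and median-centred ratios, chosen after seeing the data, 517 (422 against control). Dropping genes with a mean under 10 CPM left 505 lower (430 against control). A read in all 12 libraries gave 497 higher and 455 lower (408 lower against control) and -3.76 for mitochondrial ribosomal proteins. The 12 libraries alone gave 67 and 168. DESeq2 called 837 higher and 2290 lower, and 743 and 2087 against control.

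Leaving out 1 liver at a time gave 40 to 476 genes higher and 167 to 1872 lower, 41 to 399 and 213 to 1796 against control, and -5.30 to -4.30 for mitochondrial ribosomal proteins. The detection gap was -24.1, -14.3 and -2.15 percentage points at mRNA minima of 1, 5 and 50 CPM, against -9.64 at 10 CPM.

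Without the liver as a replicate block, 440 genes were higher and 1676 lower. A replicate block by number across diets, a number that the labels do not tie to a shared litter or day, gave 277 higher and 842 lower (711 lower against control). Deviations of same-numbered livers correlated at 0.038 to 0.34, with 2 of 3 pairs over 0.1.

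Of the values of 55 single genes under these alternatives, 1103 kept their direction and side of the threshold, 58 lost the call and 7 gained it. Another 30, from 9 genes, turned in sign, and none of the 9 was called in the main comparison or where the sign turned. Plain library size and the RPKM total put Apob at -0.54 and -0.84, Cps1 at -0.15 and -0.45 and Rack1 at -0.59 and -0.89, and the RPKM total put Acly at -0.23 and Cyp7a1 at -0.29. Upper-quartile scaling and median-centring put Scd1 at 0.045 and 0.0087, Pabpc1 at 0.25 and 0.21 and Hspa5 at 0.23 and 0.19. Pabpc1 and Hspa5 stood at 0.17 and 0.15 when genes under 10 CPM were dropped, 0.072 and 0.053 with a read in all 12 libraries and 0.088 and 0.065 by DESeq2, and Hspa5 at 0.19 without the replicate block. Leaving out 1 liver gave Hmgcs1 -0.62 to 0.12, Pabpc1 -0.38 to 0.33, Hspa5 -0.72 to 0.38 and Rack1 -0.058 to 0.37.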
